A study of Mus musculus with 6 samples.

Results

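Transcripts of 10 chaperone genes, among the 55450 genes of the mouse annotation, were followed through the peaks of a STRAP eCLIP experiment. The genes are the endoplasmic reticulum (ER) chaperones Hspa5, Hsp90b1, Calr, Canx and Pdia3, the mitochondrial Hspd1, and the cytosolic Hsp90aa1, Hsp90ab1, Hspa8 and Hspa4. A peak was counted for a gene when its summit, the base with the most overlapping reads, lay inside the span of that gene. This gave 63 of the 10748 deposited peaks, of which 60 came from the 5969 eCLIP peaks and 3 from the 4779 input peaks. The genes were chosen by the tags and peaks they held in these lists, so the presence of peaks and the number of tags (reads left after duplicate removal) are given as a description and not as a test.

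STRAP is a WD40-repeat protein of the complex that assembles spliceosomal ribonucleoproteins, and eCLIP sequences the RNA crosslinked to it by UV light. The eCLIP libraries came from 2 pools of whole C57BL/6 wild-type embryos at E9.5 (embryo-1 and embryo-2) and from 2 samples of wild-type embryoid bodies (EB-1 and EB-2). EBs are aggregates of differentiating embryonic stem cells, here 9 days old and kept in ES medium without LIF and then for 5 days in N2B27 medium with 10 ng/ml bFGF. Each tissue has 1 size-matched input, which did not go through the STRAP pull-down. The eCLIP libraries held 136935 and 185125 tags in embryos and 165566 and 228422 in EBs, against 6289516 for the input of embryos and 6825190 for that of EBs. Tags in peaks were scaled to CPM, which here are tags per 1000000 filtered tags of the library. Peaks were called in each library against its own background, and the fragment size was set at 76 in EB-2 and 200 elsewhere, so that broad peaks of the other libraries appear there as several narrow ones. In the eCLIP libraries 5 and 3 of 7 primitive erythroid genes held peaks in embryos and 0 in EBs, while 0 of 7 pluripotency genes did so in embryos and 5 and 4 in EBs. Neural ectoderm genes did so in 2 and 2 of 6 cases in embryos (Nnat in both libraries) and in 1 and 1 in EBs (Sox2), heart genes in 1 and 1 of 6 in embryos and 0 in EBs, and yolk sac endoderm genes in 0 and 1 of 4 in embryos and 0 and 1 in EBs. The inputs went less clearly with their labels. The embryo input held 1 heart peak, of 16 tags on Myh7, and 0 peaks on the erythroid and neural genes. The EB input held peaks of 26 tags on the erythroid Hba-x and 44 tags on Nnat, which among the eCLIP libraries had peaks in embryos only, and neither input held a peak on a pluripotency gene. Counts of members without an input peak are therefore also given with both inputs and with none. As whole tissues were lysed, a smaller number of cells that express a gene and less of its RNA per cell cannot be told apart. Whether STRAP binding per transcript differed between the tissues was not tested. According to the paper, STRAP occupancy near splice sites went largely with the abundance of the transcript.

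Chaperones bind unfolded proteins and help them reach their native shape. In the cytosol, HSP70 proteins such as Hspa8 take up nascent chains and pass some clients on to HSP90, whose constitutive form is Hsp90ab1 and whose stress-inducible form is Hsp90aa1. In the ER, Hspa5 (BiP) and Hsp90b1 (GRP94) are the HSP70 and HSP90 counterparts, Calr and Canx are lectins that hold glycoproteins, and Pdia3 forms disulfide bonds in the glycoproteins they present. Soluble ER chaperones carry a retention signal at the C-terminus, which is encoded just before the stop codon, whereas Canx is anchored in the membrane.

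ER chaperone mRNAs carried most of their exonic eCLIP tags in peaks with summits near the stop codon, while in the HSP90 mRNAs of the cytosol the summits lay further upstream in the coding sequence. Of 30 exonic summits in the 5 ER genes, 16 (53.3%) lay within 150 nt of the last coding base, and these peaks carried 361 of 450 tags (80.2%). The share over all exonic eCLIP summits in protein-coding genes was 18.1% (568 of 3133). All 5 ER genes had such summits: 4 of 7 in Calr, 4 of 7 in Canx, 3 of 4 in Hspa5, 3 of 7 in Hsp90b1 and 2 of 5 in Pdia3. Among cytosolic chaperones the count was 2 of 22 (9.09%), both in Hspa8 in embryos, and in Hsp90aa1 and Hsp90ab1 together it was 0 of 15. Hspa8 alone had 2 of 5 summits there, with 56.7% of its exonic tags, which was close to Pdia3 with 51.5%. Hspa4 had 0 of 2, and the mitochondrial Hspd1 had 1 of 1. The low cytosolic count is therefore mainly that of the HSP90 genes. All tags of a peak are counted here at its summit. In Hsp90ab1, broad peaks of embryo-1, embryo-2 and EB-1 reached into exon 11, the last exon. The count of 0 therefore concerns summits and does not show that these mRNAs lacked tags at the stop codon. The distance of 150 nt was chosen after the positions had been seen, and several peaks come from the same gene, so no test was made. Within 100 nt the share was 46.7% in ER genes, against 13.5% over all genes, and within 300 nt it was 63.3%, against 26.7%.

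**Figure D1:**
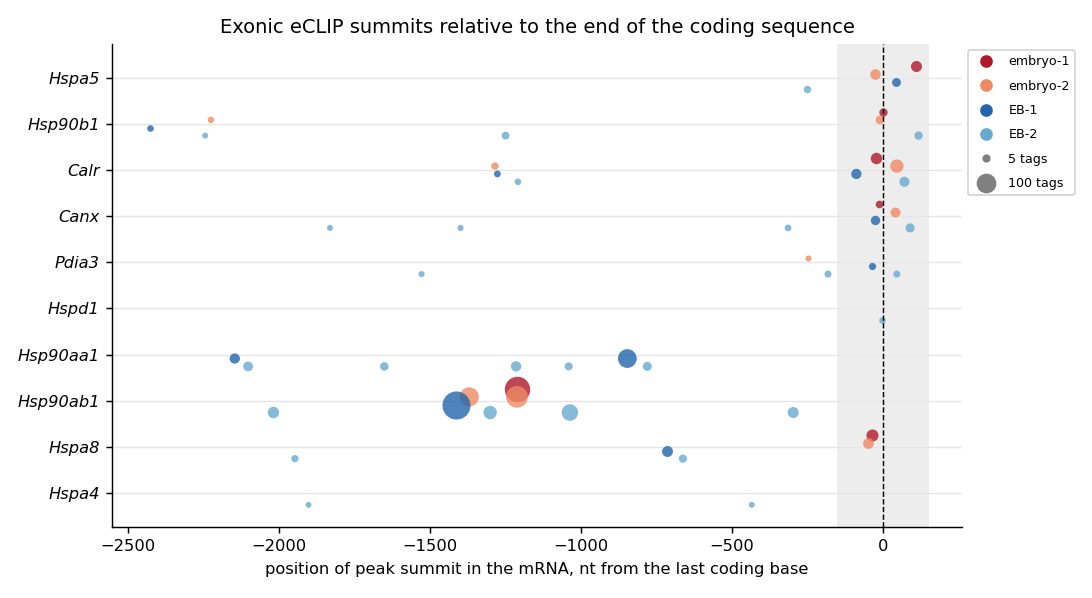
Position of each exonic eCLIP summit in the mRNA, in nt from the last coding base (dashed line at 0, negative values upstream), with 1 row per gene, colours for the 4 libraries and point area growing with the tags of the peak. The shaded band spans 150 nt on either side: 16 of 30 ER summits fall in it, and 0 of 15 summits of Hsp90aa1 and Hsp90ab1 do.

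The ER share was above that of all genes in every eCLIP library, with sizes that differed. ER summits near the stop codon were 4 of 4 in embryo-1, 4 of 7 in embryo-2, 4 of 6 in EB-1 and 4 of 13 in EB-2. The shares over all protein-coding genes were 15.7%, 18.8%, 20.1% and 18.4% in the same libraries. In each ER gene the summits near the stop codon fell in a single merged region, so the library counts repeat the same sites. Without EB-2, whose narrow peaks add sites elsewhere in the mRNA, the ER count was 12 of 17 (70.6%), against 18.0% over all genes, and the cytosolic count was 2 of 9 (22.2%). The cytosolic share was 1 of 2 and 1 of 3 in embryos, above that of all genes, and 0 of 4 and 0 of 13 in EBs. The summits of the other 3 libraries can be moved by 62 nt toward the 3′ end to match the read shift used in EB-2. This direction assumes a read orientation that was not checked, as the peaks carry no strand. After that move, 15 of 30 ER summits (50%) and 72.9% of the tags were within 150 nt, against 18.5% of all exonic summits, and within 300 nt the ER share was 63.3%, against 27.6%. Without Calr, the ER gene with input peaks in the same place, the count was 12 of 23 (52.2%) for the summits as deposited. After the move it was 11 of 23 (47.8%).

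**Figure D2:**
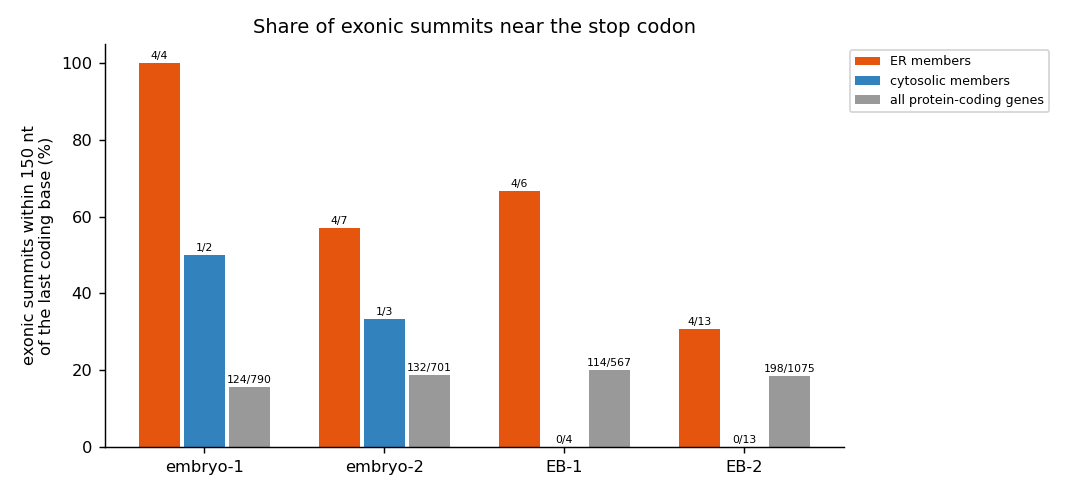
Percent of exonic summits that lie within 150 nt of the last coding base in each eCLIP library, for ER chaperones, cytosolic chaperones and all protein-coding genes, with the counts above the bars. ER bars run between 30.8% and 100%, each above the bar of all genes (15.7% to 20.1%), and the cytosolic bars rest on 2 to 13 summits each.

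The end of the coding sequence, around which these summits lay, is shown for the 5 ER genes so that the last codons can be read beside the distances. Each line gives the 27 last coding bases in lower case and the stop codon in capitals, on the strand of the gene, from GRCm38.p6. Hspa5 lies at chr2:34776084-34776113 on the plus strand, Calr at chr8:84842647-84842676 and Canx at chr11:50296282-50296311 on the minus strand, and Pdia3 at chr2:121437670-121437699 on the plus strand. The stretch of Hsp90b1, between chr10:86691102 and 86691631 on the minus strand, is joined across the last intron. In Hspa5, Hsp90b1 and Calr the closing codons encode the classical retention signal.
Hspa5: gaggatacatcagaaaaagatgagttgTAG
Hsp90b1: aaggaatctacagagaaggatgaattgTAA
Calr: tcccctggccaagccaaggatgagctgTAG
Canx: ccaagaaacagaaagccacgaagagagTGA
Pdia3: aagaagaagaaggcacaagaggacctcTAA

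Calr, a calcium-binding lectin chaperone of the ER lumen, had the most eCLIP tags of the ER genes. Its peaks held 263 and 335 CPM in embryos (36 and 62 tags), against 205 and 140 CPM in EBs (34 and 32 tags). Both embryo libraries were above both EB libraries, with means of 299 ± 50.9 CPM in embryos and 173 ± 46.1 in EBs (SD, n = 2 each), a ratio of 1.73. The main region, chr8:84842093-84843217 in exons 8 and 9 of 9, was held by all 4 eCLIP libraries, with summits 24 nt and 88 nt before the last coding base in embryo-1 and EB-1 and 46 nt and 71 nt after it in embryo-2 and EB-2. A smaller region at the first exon, chr8:84846716-84846955, held 10 tags in embryo-2, 7 in EB-1 and 6 in EB-2, with summits in the 5′ UTR in the first pair and in the first coding bases in EB-2.

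Calr was also the gene of this set that the inputs showed most clearly, with a peak of 19 tags in embryo input and 14 in EB input over the same 3′ region. Scaled to depth, the region had 263 and 281 CPM in embryo eCLIP and 163 and 114 in EB eCLIP, against 3.02 in embryo input and 2.05 in EB input. The Poisson intervals at 95%, which cover counting error only, ran between 74.4 and 368 CPM over the eCLIP libraries and between 1.12 and 4.72 over the inputs. The peaks there spanned 620 to 1115 nt in eCLIP, against 680 nt in embryo input and 683 nt in EB input. All 4 eCLIP values were above both inputs, which is given without a test because Calr was chosen by its eCLIP peaks. The input summits lay 67 nt and 184 nt before the last coding base.

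Hspa5, the HSP70 of the ER lumen, held 33 and 29 tags in embryos, against 18 and 10 in EBs. This is 241 and 157 CPM in embryos and 109 and 43.8 in EBs, and both embryo values were above both EB values, with means of 199 ± 59.6 in embryos and 76.2 ± 45.9 in EBs (SD, n = 2 each), a ratio of 2.61. It had 1 peak per library, all in the region chr2:34774578-34776454, and no input peak. The summits lay in the last exon (exon 9 of 9, 1997 nt), 109 nt after the last coding base in embryo-1, 27 nt before it in embryo-2, 42 nt after it in EB-1 and 252 nt before it in EB-2.

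Canx, the membrane-bound lectin chaperone, held 11 and 25 tags in embryos, against 21 and 33 in EBs. This is 80.3 and 135 CPM in embryos and 127 and 144 in EBs, so the tissues overlapped. The region chr11:50295772-50296516 in the last exon (exon 15 of 15) was held by all 4 libraries, with summits 14 nt and 25 nt before the last coding base in embryo-1 and EB-1 and 40 nt and 90 nt after it in embryo-2 and EB-2. EB-2 added 3 small peaks of 7, 4 and 3 tags in exons 12, 5 and 1.

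Hsp90b1, the HSP90 of the ER, held 15 and 22 tags in embryos, against 6 and 30 in EBs, or 110 and 119 CPM in embryos and 36.2 and 131 in EBs. The tissues overlapped, because the 2 EB libraries were the lowest and the highest. The 3′ region chr10:86690869-86691298 was held by both embryo libraries and EB-2, with summits 1 nt and 10 nt before the last coding base in embryos and 118 nt after it in EB-2. These summits also lie inside the pseudogene 1810014B01Rik on the other strand, and the peaks carry no strand. EB-1 held only a peak of 6 tags in the first exon, whose summit also lies in the microRNA gene Gm25745.

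Pdia3, the disulfide isomerase that works with the lectins, had 0 and 4 tags in embryos, against 9 and 20 in EBs. Embryo-1 had no peak and embryo-2 had 21.6 CPM, against 54.4 and 87.6 CPM in EBs, so both EB values were above the embryo values. The region chr2:121437487-121437996 in the last exon was held by both EB libraries, with summits 36 nt before and 46 nt after the last coding base. A further region in exon 11, chr2:121435798-121436051, held 4 tags in embryo-2 and 8 in EB-2.

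The only mitochondrial member was Hspd1, the HSP60 that folds proteins in the matrix. It held a single peak of 6 tags in EB-2 and none in the other 5 libraries. Its summit lay 4 nt before the last coding base, in exon 12 of 12. At this number of tags, which is 26.3 CPM with a counting interval of 9.64 to 57.2, a difference between tissues was not detectable.

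ER chaperones carried fewer tags than cytosolic chaperones in each eCLIP library, and most of the cytosolic tags were in Hsp90ab1. Hsp90ab1, the constitutive HSP90, held 212 and 267 tags in embryos, against 260 and 205 in EBs. These were 1548 and 1442 CPM in embryos and 1570 and 897 in EBs, so the tissues overlapped. By tags it ranked 11 and 8 among the genes with peaks in embryos, and 8 and 11 in EBs. Peaks covered most of the gene between chr17:45567830 and 45572103, as 1 peak of 4256 nt in embryo-1, 2 in embryo-2, 1 of 4233 nt in EB-1 and 4 in EB-2. The summits lay in exons 6 and 7 of 11 in embryos and EB-1, and in exons 3, 6, 7 and 10 in EB-2. Between 51.6% and 90.5% of the length of these peaks was exonic. The EB input had a peak of 16 tags, or 2.34 CPM, in the 5′ UTR at some distance from every eCLIP peak of the gene, and the embryo input had none.

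Hsp90aa1, the inducible HSP90, differed most between the tissues among the genes with peaks in all 4 eCLIP libraries. It held 32 and 11 tags in embryos, against 138 and 107 in EBs, or 234 and 59.4 CPM in embryos and 834 and 468 in EBs. Both EB libraries were above both embryo libraries, with means of 147 ± 123 CPM in embryos and 651 ± 258 in EBs (SD, n = 2 each), 4.44-fold higher in EBs. The main region, chr12:110692220-110695245, was held by all 4 libraries, and a second at chr12:110695297-110695783 over exons 2 and 3 by both EB libraries only, with 27 and 24 tags. Exonic summits, all in EBs, lay in exons 2 to 8 of 11. The 3 summits of the embryo libraries fell in introns, 22 nt, 26 nt and 41 nt from the nearest exon. EB-2 also had an intronic summit, 8 nt from the nearest exon, and the embryo peaks themselves reached into exons 5 to 10. After the move toward the 3′ end described above, the embryo-2 summit lay in exon 8. The embryo-1 summit of 13 tags then lay in exon 6, and that of 19 tags stayed in an intron. No tissue difference in exon or intron position is therefore read from these summits.

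Whether reads of Hsp90aa1 could be shared with copies of the gene was not settled, because the aligner settings in the methods keep reads with several placements, while the methods elsewhere call the mapping unique. Elsewhere in the genome 5 stretches of at least 75 nt were at least 95% identical to its mRNA, and 3 of them, at the annotated Gm12346, Gm5511 and Gm5844, held eCLIP peaks. These copies had 0 tags in both embryo libraries, against 18 and 20 tags in EB-1 and EB-2. With the copies added, the gene had 234 and 59.4 CPM in embryos and 942 and 556 in EBs. Hspa8 had 5 such copies, of which 2 held 3 and 4 tags in embryo-1 and embryo-2 and none in EBs, and Hspd1 had 3 copies without peaks. For Hspa5, Calr, Canx, Pdia3 and Hspa4 no copy was found.

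The strongest narrow peaks in the HSP90 mRNAs are given by 30 nt around the summit with the most tags in EB-2, where peaks are narrowest, with the summit base in capitals, on the strand of the gene and from GRCm38.p6. For Hsp90ab1 this is in exon 7, at chr17:45569634-45569663, and for Hsp90aa1 it is the start of exon 6, between chr12:110693862 and 110694037, joined across an intron. These stretches lie 1036 nt and 1214 nt before the last coding base.
Hsp90ab1: tcaactttatccgcgGtgtggttgactccg
Hsp90aa1: cacttggcagtaaagCatttttctgttgaa

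Hspa8, the constitutive HSP70, held 41 and 31 tags in embryos, against 32 and 44 in EBs, which is 299 and 167 CPM in embryos and 193 and 193 in EBs. The embryo values were above and below the EB values. All 4 libraries held the region chr9:40803352-40805193 over exons 5 to 9. The summit lay 37 nt and 49 nt before the last coding base in embryos and in exon 6 in EB-1. In EB-2 the region split, and 2 of its summits lay in introns at the small nucleolar RNA genes Snord14c and Snord14e, with 9 and 12 tags. Hspa4, an HSP110-type exchange factor for HSP70, held 5 and 0 tags in embryos, against 0 and 6 in EBs.

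Summed over the members of each compartment, ER genes had 694 and 767 CPM in embryos and 532 and 547 in EBs. Cytosolic genes had 2118 and 1669 in embryos and 2597 and 1585 in EBs. The ratio of ER to cytosolic tags was 0.328 and 0.460 in embryos and 0.205 and 0.345 in EBs. Without Hsp90ab1, an alternative chosen after seeing the data, the ratio was 1.22 and 3.38 in embryos and 0.518 and 0.796 in EBs, so that in embryos the remaining cytosolic genes had fewer tags than the ER genes. Levels of different genes were not scaled to mRNA length, and the sums compare peaks and not expression. ER peaks had a median of 10.5 tags and a median fold over the library's own background of 15.9, against 24 tags and 11.2-fold for cytosolic peaks, and over all eCLIP peaks the medians were 5 tags and 33.3-fold.

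**Figure D3:**
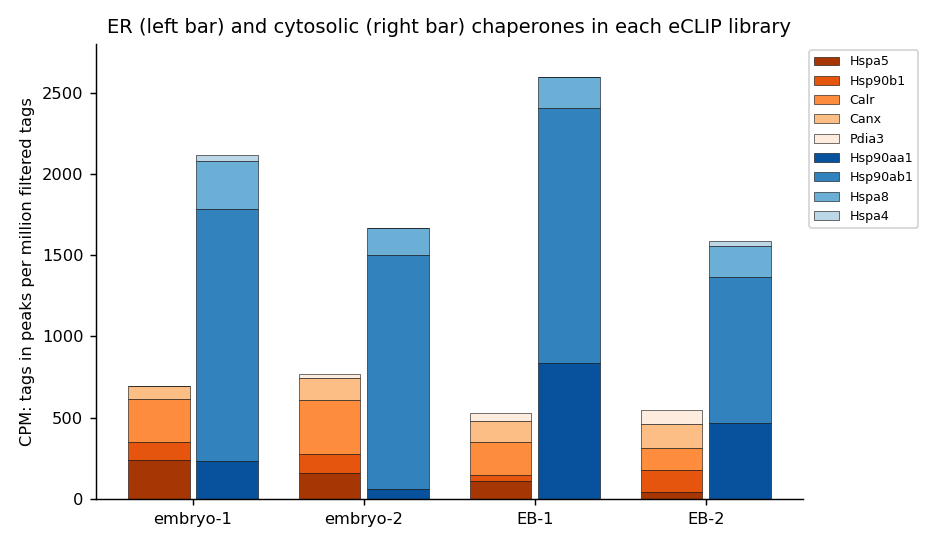
Tags in peaks of each eCLIP library, in CPM (vertical axis, from 0), stacked by gene, with ER chaperones in the left bar and cytosolic chaperones in the right bar. The ER bars lie between 532 and 767 and the cytosolic bars between 1585 and 2597, with Hsp90ab1 as the tallest block in every cytosolic bar.

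The summed CPM of the ER chaperones were higher in embryos, with 730 ± 51.8 in embryos and 539 ± 11.1 in EBs (SD, n = 2 each). The libraries did not overlap. Among these genes only Hspa5 and Calr had both embryo libraries above both EB libraries. Hsp90b1 and Canx overlapped, and Pdia3 had the opposite order. Both embryo libraries were also above both EB libraries in 60.8% of the 232 protein-coding genes with summits in all 4 eCLIP libraries. As shares of the tags in all peaks, the ER values were 0.435% and 0.568% in embryos and 0.422% and 0.532% in EBs, and these overlapped. The share of a library's tags that lay in any peak was 16% and 13.5% in embryos and 12.6% and 10.3% in EBs, and its part in the difference was not tested. All 10 members together had 2812 and 2436 CPM in embryos and 3129 and 2158 in EBs, with means of 2624 ± 265 and 2643 ± 686. As shares of peak tags they had 1.76% and 1.80% in embryos and 2.49% and 2.10% in EBs, which did not overlap. With 2 libraries against 2, the smallest two-sided exact permutation p is 0.333, so no tissue difference could be tested.

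The tissue order of single members can be read against all genes. Among 232 protein-coding genes with summits in all 4 eCLIP libraries, both embryo libraries were above both EB libraries in 60.8%, and 2 of the 7 members concerned, Hspa5 and Calr, were among them. Both EB libraries were above both embryo libraries in 8.62%, and the member among them was Hsp90aa1. With tags in all peaks as the denominator, the shares over all genes were 44.0% and 14.7%. Hspa5 and Calr stayed with the first group, and Canx joined Hsp90aa1 in the second. Pdia3, which was not among the 232, had the order of Hsp90aa1 on both scales.

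**Figure D4:**
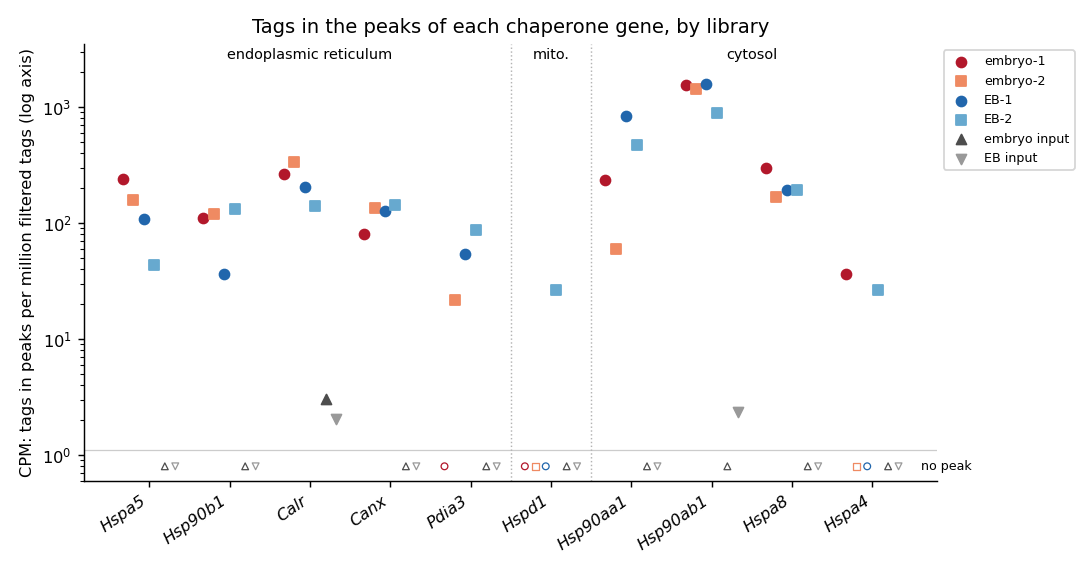
Tags in the peaks of each member, in CPM (log axis), 1 point per library, with ER genes on the left, Hspd1 in the middle and cytosolic genes on the right, and open symbols for no peak. The eCLIP points of a gene lie above its input points wherever both exist, and Hsp90aa1 and Pdia3 have both EB points above the embryo points.

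Against the inputs, the members had 2812 and 2436 CPM in embryo eCLIP and 3129 and 2158 in EB eCLIP, against 3.02 in embryo input and 4.4 in EB input. The difference in mean log2, after 1 was added to each value, was 9.13, which is a description and not a test, since the members were chosen by these tags. Peaks covered between 8391 and 13487 nt of the member genes in the eCLIP libraries, against 680 nt in embryo input and 1200 nt in EB input, with means of 16.4 to 51.8 tags per peak in eCLIP, against 19 and 15 in the inputs. The smallest peak in an input had 10 tags, or 1.59 CPM in embryos and 1.47 in EBs, so that a gene without an input peak may still have had input reads below that size.

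Members held peaks in both embryo eCLIP libraries and none in the embryo input in 6 of 10 cases (Hsp90aa1, Hsp90ab1, Hspa8, Hspa5, Hsp90b1 and Canx), against 1.6% of all protein-coding genes. In EBs there were also 6 (Hsp90aa1, Hspa8, Hspa5, Hsp90b1, Canx and Pdia3), against 1.95%. With no peak in either input the counts were 5 in embryos, where Hsp90ab1 dropped out, and 6 in EBs, against 1.33% and 1.71%, and without use of the inputs they were 7 and 8, against 2.16% and 2.52%. In all 4 eCLIP libraries 7 members held peaks, against 1.06%, and each of the 10 held a peak in at least 1 eCLIP library, against 10.6%. An input peak was found in 2 members, against 7.39% of genes. The members were chosen for such peaks, so nothing is read from these counts. Of the 60 member peaks, 4 overlapped an input peak, all in Calr, against 19.2% of all eCLIP peaks, and 20 had a score of at least 100, which is minus 10 times the log10 of the caller's p, against 28.9%.

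Merging overlapping peaks over the libraries gave 23 member regions, of which 6 were held by all 4 eCLIP libraries, 2 by 3 and 4 by 2. The 6 shared by all were the main regions of Hspa5, Calr, Canx, Hsp90aa1, Hsp90ab1 and Hspa8. Of 11 regions held by 1 library, 9 came from EB-2.

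Most summits lay in coding exons, 39 of 60 (65.0%), against 40.3% of all eCLIP peaks inside genes. Member summits were classed on the transcript with the longest coding sequence. All peaks were classed over any transcript, with UTRs placed before coding exons and noncoding genes included, so the shares are not strictly alike. The 60 summits come from 10 genes and 30 of them from EB-2, so they are not independent and no interval is given. By library the share was 55.6% and 63.6% in embryos and 70.0% and 66.7% in EBs. A further 8 summits (13.3%) lay in 3′ UTRs, all in ER genes, 6 (10%) in 5′ UTRs and 7 (11.7%) in introns. Over all eCLIP peaks inside genes these shares were 13.9%, 10.5% and 25.7%. Moving the summits of 3 libraries by 62 nt toward the 3′ end gave 36 in coding exons and 17 in 3′ UTRs. The latter then included the embryo summits of the cytosolic Hspa8. Summits in the first 25 nt after a 3′ splice site numbered 11 and those in the last 50 nt before a 5′ splice site 4, and after the move 5 and 8, so which site they lay closer to was not settled. The same counts over all eCLIP summits were not made, so nothing is read from those of the members.

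Purine-rich motifs were searched on the strand of the gene in 200 nt around each summit. GAAGAA was present in 21 of 60 member peaks (35%), in 9 of 30 ER peaks and in 12 of 29 cytosolic peaks, against 18.7% of all eCLIP peaks inside genes. In 100 nt it was present in 15% of member peaks, against 11.4%. GAGGAG was present in 16.7% of member peaks, against 14.7%, and GCAGCA in 6.67%, against 11.2%. The windows of neighbouring peaks overlap, and 6 of the 21 peaks with GAAGAA were in Hsp90aa1.

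Other genes of the folding machinery held up to 80 eCLIP tags each. In a list of 87 annotated genes of co-chaperones, chaperonin subunits, ER folding enzymes and the unfolded protein response, 30 (34.5%) had a peak in at least 1 eCLIP library, against 10.6% of all protein-coding genes. Only 3 had a peak in all 4 libraries. St13, the HSP70-interacting protein Hip, held 29 and 22 tags in embryos, against 13 and 16 in EBs. Stip1, the adaptor Hop that links HSP70 to HSP90, held 10 and 5 tags in embryos, against 17 and 16 in EBs. P4hb, a major protein disulfide isomerase of the ER, held 13 and 11 tags in embryos, against 3 and 7 in EBs. Scaled to depth, St13 and P4hb were higher in both embryo libraries than in both EB libraries, and the tissues overlapped in Stip1. Dnajc7, an HSP40-type co-chaperone, held peaks in 3 libraries. Hspa9, the mitochondrial HSP70, Cct3, a chaperonin subunit, Pdia4, an ER disulfide isomerase, and Pfdn1, a prefoldin subunit, each held peaks in 2. Peaks in both embryo libraries without an input peak were seen in 5 genes (5.75%), against 1.6% of all genes, and in both EB libraries in 4 (4.6%), against 1.95%. The list was chosen with earlier results of these data known, and the shares over all genes were not limited to expressed genes. Nothing is therefore read from these shares. The stress-inducible HSP70 genes Hspa1a and Hspa1b, named after their values were seen, had 0 peaks in all 6 libraries.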

How the data were processed

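The authors trimmed reads with cutadapt, discarded those matching repeats, mapped the remainder with STAR 2.5.2b to GRCm38, removed duplicates and called peaks per library with MACS 1.4.2, without a control library. Per the methods, peaks were called against input at other thresholds, so the deposited lists are not those lists. The tag count of a peak is deposited unscaled. The deposited score is minus 10 times the log10 of the caller's p. The deposited fold is a ratio to the library's own background.

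From these lists, summits were placed in genes of Gencode M21 on GRCm38 with Python 3.11.15 (pandas 2.3.3, numpy 2.4.6, scipy 1.17.1), and tags were divided by the filtered tags in the file headers (CPM). Exon positions use the transcript with the longest coding sequence. The genome matches the files: each of 10676 peaks on chromosomes ended within its chromosome, and all 10 members' coding sequences open with ATG and are followed by a stop codon. Copies were found with BLAST 2.17.0. Steps were tested on simulated data. The planned permutation test of eCLIP against input is not reported, since the members were chosen by their eCLIP tags. The genes named are the 10 members and the 8 pathway genes that ranked first by the number of eCLIP libraries with peaks, then by tags. Members and lists were chosen with earlier results of these data known. Alternatives were a fold above 5, a score of at least 100, span overlap, other denominators, summit and window choices, and leaving out each eCLIP library. The paper calls the EB replicates independent and biological, without saying whether they came from separate cell lines or differentiations. Errors therefore measure the spread between these samples only. One list gene, Cct6a, was not matched in the annotation.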

Additional observations from a re-analysis of the deposited data

How the results depend on the processing

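Depth is the main limit: member peaks had as few as 3 tags, and 2 libraries per tissue allow no test of tissue. Of 65 alternatives to the summary values, 56 were counted as unchanged. This meant a value within the replicate spread or a count within 1.5 times. For eCLIP over input it meant only that the sign was kept. There the log2 value was 5.58 with all peak tags as the denominator and 10.9 with a score of at least 100, against 9.13. Among 51 alternatives for the tissue ratio of single genes, 50 stayed within the replicate spread. The other was Calr with all peak tags as the denominator (log2 embryo over EB of 0.44, against 0.81). Hsp90aa1, Hspa5 and Calr kept their direction in all of theirs, while Hsp90ab1, Hspa8 and Hsp90b1, whose tissues overlapped, changed sign in some. For Hsp90aa1 and Hspa5 these alternatives did not include a score of at least 100. Hsp90aa1 had no such peak in either embryo eCLIP library, and Hspa5 had none in either EB eCLIP library. With peaks of a score of at least 100 only, the coding exon share was 73.0%, against 64.0% as the mean of the libraries, members with peaks in both embryo libraries and no input peak fell to 3, against 6, regions shared by 2 or more libraries to 5, against 12, and the log2 ratio of embryo to EB tags was 0.47, against 0.01. GAAGAA was then present in 50.7% of member peaks, against 35.5% with all peaks, both as the mean of the libraries. Pooled, this was 10 of 20 peaks, against 12.8% of all eCLIP peaks inside genes with such scores. The 10 lay in Calr, Hsp90aa1, Hsp90ab1, Hsp90b1 and Hspa5 only. In 100 nt windows, with all peaks, the mean was 15.9%. Moved summits gave a coding exon share of 56.1%. With all peak tags as the denominator, the embryo to EB log2 ratio was -0.36. Without Hsp90ab1, chosen after seeing the data, the log2 ratio of ER to cytosolic tags was 0.19, against -1.64. Leaving out each eCLIP library gave 10 to 17 member peaks per library, without EB-2 at the low end, coding shares of 62.0% to 66.8%, log2 eCLIP over input of 9.04 to 9.22, embryo to EB log2 ratios of -0.26 to 0.28, ER to cytosol of -1.81 to -1.42, and 7 members in embryos and 6 to 8 in EBs. The replicate block, as the mean log2 ratio within replicate numbers, gave 0.01, with -0.15 for number 1 and 0.17 for number 2. The numbers did not pair the samples (r = 0.07 between same-numbered deviations over 317 genes).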
